A study of Mus musculus with 12 samples.

Results

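The comparison described here set RNA bound to GFP-tagged ribosomes against the RNA left in solution, in the arcuate nucleus of mice at postnatal day 12 (P12), tissue that the labels give as hypothalamus. It used 6 of the 12 libraries of the series, chosen by their labels: P12 pull-down libraries 1 to 3 and P12 supernatant libraries 1 to 3, with libraries of 1 number taken as a pair. The other 6 libraries, the same fractions at postnatal day 60 (P60), were used only where the ages were compared. All libraries came from C57BL/6 mice that carried both Pomc-CreERT2 and Rosa26-eGFPL10a and received tamoxifen on consecutive days shortly before the age studied. By the study's schedule the time from the last dose to the age studied was shorter at P12 than at P60. Of 19878 genes in the table, 14852 had enough counts to be tested and 5026 did not.

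Neurons of the arcuate nucleus that make pro-opiomelanocortin (POMC) release melanocortin peptides, lower food intake and respond to leptin and insulin. In this line tamoxifen lets a Cre recombinase expressed from Pomc sequences switch on a ribosomal protein fused to GFP. Antibody to GFP then draws those ribosomes, with the mRNA they are reading, out of a tissue lysate. Both fractions therefore came from mice that carry the tag. The supernatant still holds whatever RNA of POMC neurons the beads did not bind, and libraries from mice without the tag were not analysed here. RNA carried by the beads for other reasons and RNA on tagged ribosomes cannot be told apart, nor can fewer tagged cells and less RNA per cell.

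The pull-downs were shallower and more variable than the supernatants. The P12 pull-down libraries summed to between 6305778 and 19814679 counts, lowest in library 1, and the supernatant libraries to between 23785154 and 35249290. Between 12812 and 14681 genes had a count in a pull-down and 17485 to 17862 in a supernatant. Among genes for which the paired supernatant predicted 20 to 50 reads, 28.5%, 17.8% and 38.3% had no read at all in pull-downs 1, 2 and 3, against 8.23% to 27.7% in the P60 pull-downs. Over 9353 genes averaging at least 10 counts per 1000000 counts of the library (CPM) in these 6 libraries, the median SD of log2(CPM + 0.5) was 0.43 among the P12 pull-downs and 0.11 among the supernatants. A gene that did not pass the test can therefore not be called absent from the tagged ribosomes.

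The first question was whether the transcript that drives the labelling, and the tag itself, were enriched. Pomc, the prohormone gene, stood at 9.83, 21.9 and 81.7 CPM in pull-downs 1, 2 and 3 and at 7.90, 7.71 and 9.36 CPM in the paired supernatants. The groups did not overlap, but pull-down 1 lay just above its supernatant and most of the difference rested on pull-down 3. GFP, the tag, stood at 77.1, 39.4 and 55.8 CPM in the pull-downs and 39.3, 28.4 and 28.9 CPM in the supernatants. Here pull-down 1 was the highest, so the order of the 3 pull-downs was not that of Pomc, and pull-down 2 lay level with supernatant 1. The rise of Pomc was 2.01 ± 0.53 (log2 of pull-down over supernatant ± SE, n = 3 pairs; edgeR quasi-likelihood test, adjusted p = 0.0248) and that of GFP 1.15 ± 0.28 (adjusted p = 0.0166), both in 3 of 3 pairs. Without pair 3 neither passed (Pomc 1.26, adjusted p = 0.606; GFP 1.07, adjusted p = 0.0732). Scaling by library size alone also ended both calls (adjusted p = 0.0577 and 0.0834), and so did removing the pairing for Pomc (2.56, adjusted p = 0.0702).

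Genes that mark or equip POMC neurons were next. Of 11 POMC neuron transcription factors, 0 rose and 0 fell, and their median log2 difference was -0.31 beside -0.27 over all tested genes (1 fell under library size scaling alone). At an unadjusted p under 0.05, 0 of them were higher and 1 lower in edgeR, and DESeq2 called 0. Over all genes, 6.28% were called higher and 1.95% lower. Prdm12, a zinc-finger regulator of POMC neuron fate, stood at 0.317, 3.22 and 0.656 CPM in the pull-downs and at 6.81, 8.02 and 6.55 CPM in the supernatants. All 3 pull-downs lay below all 3 supernatants, yet at these few reads the difference of -2.60 ± 1.41 did not pass (adjusted p = 0.355). A fit over all 12 libraries called it lower (-2.29, adjusted p = 0.00266). Tbx3, a T-box factor needed for POMC identity in adult mice, stood at 11.3, 30.6 and 18.9 CPM in the pull-downs and 20.3, 16.2 and 14.8 CPM in the supernatants, and the groups overlapped. Cartpt, which encodes the co-released peptide CART, also overlapped, at 13.3, 25.5 and 9.79 CPM against 23.5, 19.6 and 24 CPM.

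**Figure D1:**
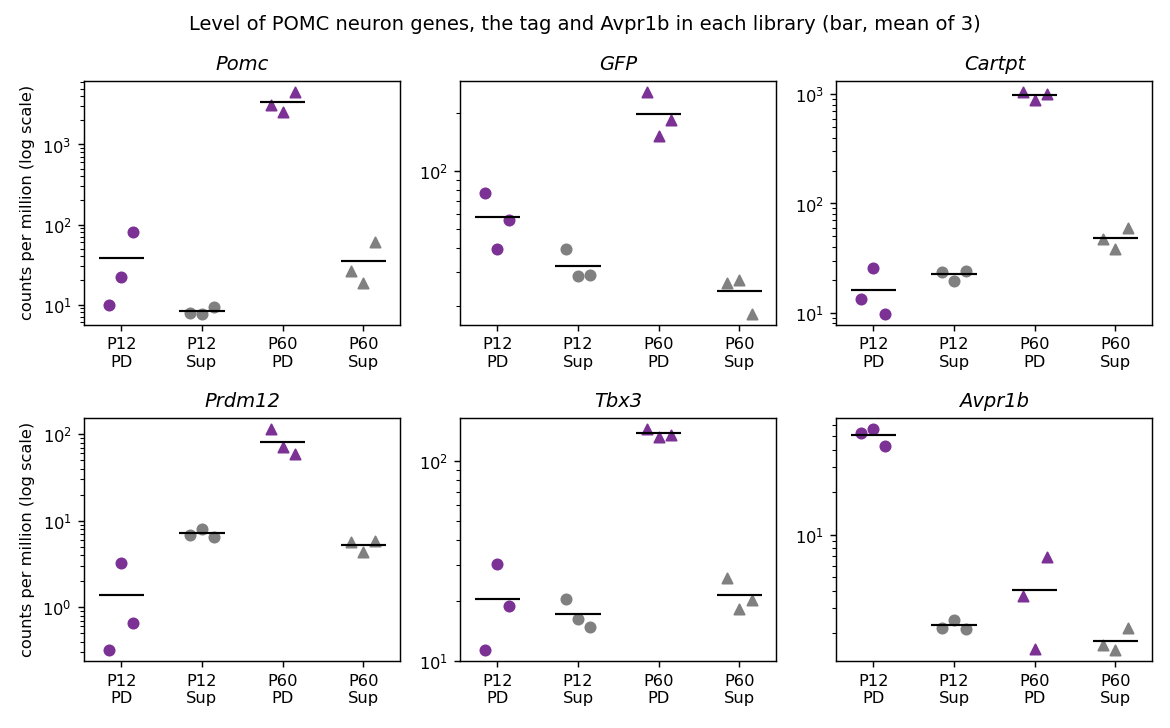
Level of Pomc, GFP, Cartpt, Prdm12, Tbx3 and Avpr1b in each library, in CPM on a log axis; circles are P12, triangles P60, purple the pull-down (PD) and grey the supernatant (Sup), and each bar is the mean of 3 libraries. At P12 Avpr1b showed the widest gap between fractions (42.6 to 56.1 against 2.16 to 2.49 CPM), whereas Cartpt and Tbx3 overlapped.

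Metabolic sensing and secretory genes were counted beside the 6.28% of all tested genes called higher and the 1.95% called lower. Of 29 metabolic receptors and signalling genes 3 rose and 0 fell (1 and 4 under scaling by library size alone), with a median of -0.42. Irs2, an adaptor that carries insulin receptor signals, stood at 243, 195 and 213 CPM in the pull-downs and 125, 129 and 91.1 CPM in the supernatants. Every pull-down lay above every supernatant, by 1.28 ± 0.17 (adjusted p = 7.71e-05). The related adaptor Irs1 rose by 0.78 ± 0.18 (adjusted p = 0.0108) and Stat3, which relays leptin signals, by 0.83 ± 0.22 (adjusted p = 0.0285), and both lost the call under library size scaling (adjusted p = 0.144 and 0.191). Stat3 did not pass without pair 1, 2 or 3 (0.79, 0.94 and 0.77; adjusted p = 0.0517, 0.0638 and 0.119). A correction for coding length, chosen after seeing the data, also ended both calls (Irs1 0.43, adjusted p = 0.327; Stat3 0.75, adjusted p = 0.0894). Lepr, the leptin receptor, was near the floor of the pull-downs at 0.317, 1.83 and 0.908 CPM, below the 4.63 to 6.81 CPM of the supernatants (-2.36 ± 1.54, adjusted p = 0.466). Of 17 genes of peptide processing and dense-core granules only Cadps, a granule priming factor, rose (0.60 ± 0.13, adjusted p = 0.00522), and it lost that call with the exonic and coding length corrections and with library size scaling, where 0 of the 17 were higher and 3 lower. Pcsk2, a prohormone convertase that cuts POMC, stood at 0.62 ± 0.19 (adjusted p = 0.0614). It passed in DESeq2 (adjusted p = 0.0244), with DESeq2 size factors (0.0448), over all 12 libraries (0.0147), without the pairing (0.0448) and without pair 1 (0.0413).

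Transmitter genes and peptides of neighbouring neurons gave 2 calls, where 6.28% of all tested genes were called higher and 1.95% lower. Gad1, which makes GABA, rose from 258, 264 and 223 CPM in the supernatants to 396, 344 and 322 CPM in the pull-downs (0.86 ± 0.14, adjusted p = 0.000499). The pull-down values lay wholly above the supernatant values. Abat, which breaks GABA down, rose by 0.56 ± 0.13 (adjusted p = 0.0102), a call lost under library size scaling. The other 8 of 10 transmitter genes were not called, and on that scale 1 of the 10 was higher and 2 were lower. None of 22 tested peptide and enzyme genes of other hypothalamic neurons passed in edgeR, where 3 were lower at an unadjusted p under 0.05, and DESeq2 called 1 lower. Their median was -0.74, and 3 were called lower under scaling by library size alone.

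The vasopressin receptor gene Avpr1b stood apart from these. It was at 52.6, 56.1 and 42.6 CPM in the pull-downs and 2.19, 2.49 and 2.16 CPM in the supernatants, a rise of 4.81 ± 0.42 (adjusted p = 6.17e-07). The 3 pull-downs were close to each other and far above every supernatant. Its protein is the receptor through which vasopressin acts on pituitary corticotrophs, the other main cell type that expresses Pomc. Of the other 11 corticotroph and pituitary genes listed, 4 had enough counts to be tested and 0 were called. Tbx19, the T-box factor of corticotrophs, had 0, 30 and 0 counts in the pull-downs and 45, 28 and 20 in the supernatants. In pull-down 2 that was 1.67 CPM. Pitx1 had 0, 9 and 0 counts against 24, 39 and 99. Single pull-downs held reads of other genes of the list. Prl, the prolactin gene, had 0, 178 and 0 counts in pull-downs 1, 2 and 3 and 0, 2 and 0 in the supernatants, Gh, the growth hormone gene, 0, 27 and 0 against 0, 1 and 0, and Tshb, a thyrotropin subunit gene, 0, 0 and 57 against 1, 9 and 7. Crhr1, a receptor of corticotrophs and neurons, had 2, 116 and 21 counts against 90, 100 and 112. Thus pituitary hormone reads were above the supernatants in pull-down 2 (Prl and Gh) and in pull-down 3 (Tshb), whereas Avpr1b was high in all 3. Summed over all 12 listed genes the level was 46.5 to 76.1 CPM in the pull-downs and 10.2 to 10.9 CPM in the supernatants, and Avpr1b made up most of the pull-down sum. Pituitary RNA as a source of the Avpr1b signal was not tested beyond these levels.

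Across the genome, 933 genes (6.28%) passed as higher and 289 (1.95%) as lower, and 932 and 287 of them moved in that direction in 3 of 3 pairs. At least a 4-fold change was reached by 94 of the genes called higher and 13 of those called lower. The median over all tested genes was -0.27, and it moved by -0.35 under scaling by library size alone, where 534 genes were higher and 1390 lower. Directions below are therefore relative to the TMM scale, and the counts of a group under the other scale are given beside its own where they differed.

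The 20 largest rises were led by A130040M12Rik and Arid1b. Arid1b, a subunit of the BAF chromatin remodeller on chromosome 17, stood at 5117, 3931 and 5588 CPM in the pull-downs and 152, 152 and 121 CPM in the supernatants. Its rise of 5.44 ± 0.17 (adjusted p = 5.64e-12) was exceeded only by the cDNA clone A130040M12Rik (5.89 ± 0.29), which reached 2826, 892 and 3595 CPM from 42.6, 43.4 and 50.3 CPM. Neither gene had a pull-down within reach of a supernatant, and no exon of another annotated gene overlapped Arid1b. Other chromatin or transcription genes in the set were Yeats2, which reads acylated histones (4.83 ± 0.19), Tnrc18 (4.27 ± 0.19), Bahcc1 (4.03 ± 0.27) and the corepressor Bcor (3.62 ± 0.27). Tnrc18 varied from 3333 to 7546 CPM among the pull-downs and Bahcc1 from 485 to 1857 CPM, with pull-down 2 the highest in both. Mlph, known for tethering pigment granules to myosin, rose by 4.13 ± 0.39 from about the same low supernatant level in 3 libraries (3.69 to 4.20 CPM) to 40.8 to 81.7 CPM. Mapk8ip2, a neuronal scaffold of the JNK pathway, was steady among the pull-downs, at 1006, 1058 and 1096 CPM against 112 to 118 CPM (3.54 ± 0.14), and the non-muscle myosin Myh9 rose by 3.38 ± 0.15.

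**Figure D2:**
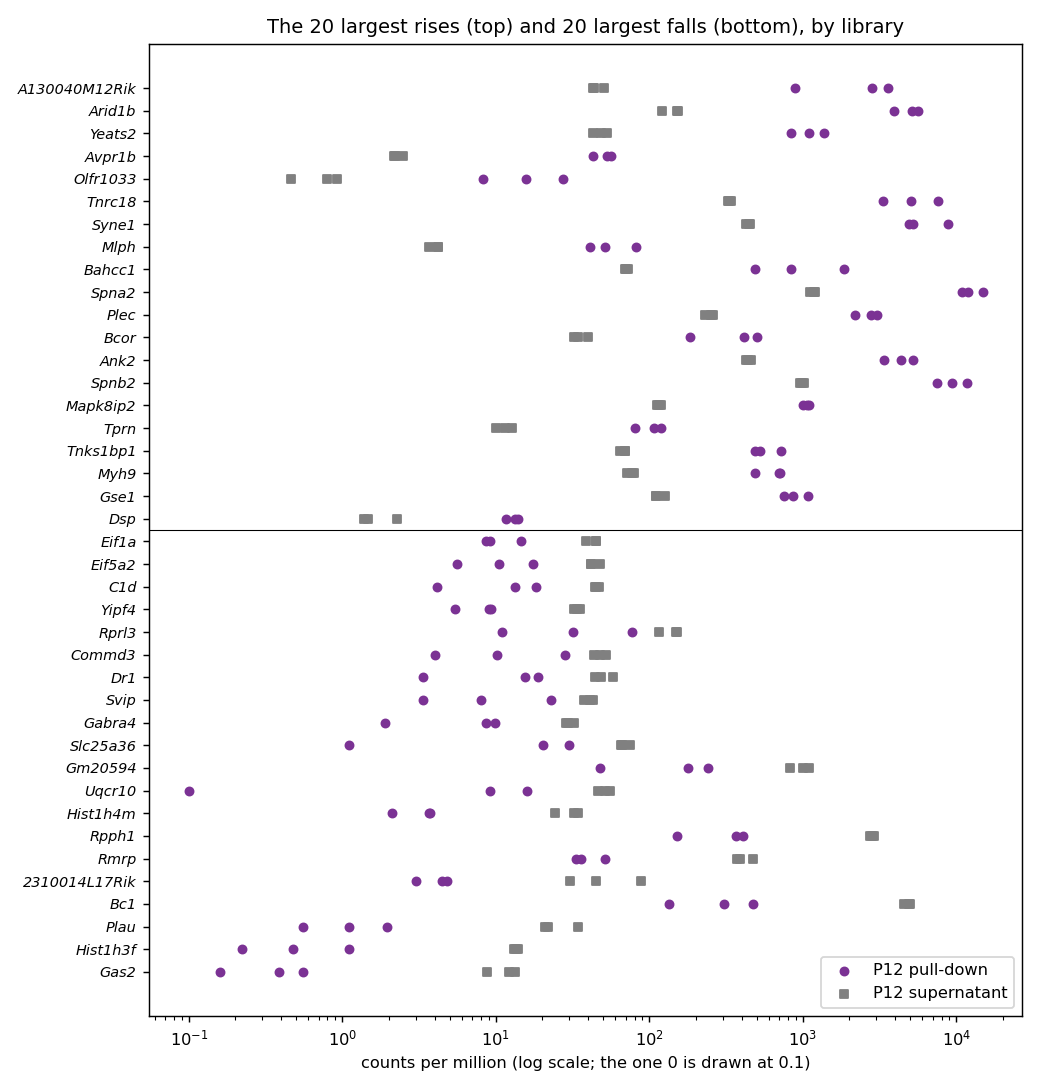
The 20 largest rises and 20 largest falls among genes called in the same direction in 3 of 3 pairs and averaging at least 10 CPM in the higher fraction, drawn as CPM in each P12 library on a log axis (purple circles, pull-down; grey squares, supernatant). Pull-down points were spread more widely than supernatant points, most of all among the falls, where Uqcr10 had no count in pull-down 1.

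The skeleton under the neuronal membrane and the cables that tie it to the nucleus were almost all higher. Of 14 spectrins, ankyrins and giant linkers 13 rose and 0 fell, with a median of 2.88, and the same 13 to 0 count held under library size scaling. Spna2, the alpha spectrin, stood at 10890, 11850 and 14830 CPM in the pull-downs and 1178, 1197 and 1115 CPM in the supernatants (3.76 ± 0.13, adjusted p = 1.64e-11). Its partner Spnb2, a beta spectrin, stood at 7502, 9417 and 11710 CPM against 963, 985 and 1016 CPM (3.60 ± 0.13). In both spectrins all pull-downs lay several-fold above all supernatants, and pull-down 3 was the highest. Syne1, a nuclear envelope linker, rose by 4.14 ± 0.16, Plec, a cytolinker, by 3.76 ± 0.13, Ank2, which anchors membrane proteins to spectrin, by 3.61 ± 0.14, and the microtubule-actin crosslinkers Macf1 and Dst by 2.998 ± 0.13 and 2.90 ± 0.13. Together the 14 genes took 39760 to 59140 CPM of a pull-down and 5539 to 5949 CPM of a supernatant.

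These genes share a property that the comparison did not use: their proteins are very long. Coding length, taken as the length of the coding sequence in the GENCODE annotation, ran from 111 to 105639 bases over the 14000 tested genes that have one, and these were cut into 10 equal deciles. The median log2 difference climbed through every decile, from -0.70 in the shortest (up to 573 bases) to 0.45 in the longest (3609 bases and more). In the shortest decile 0 genes were called higher and 109 lower, and in the longest 439 were called higher and 5 lower. That is 31.4% called higher in the longest decile beside 6.28% of all tested genes. The median coding length was 3453 bases among genes called higher, 666 bases among those called lower and 1446 bases over all tested genes.

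The gradient was also seen among well-covered genes, where reads lost by chance weigh less. Over genes averaging at least 10 CPM in a fraction, the median ran from -0.56 in the shortest decile, with 11.3% of genes called lower, to 0.60 in the longest, with 41.0% called higher. Each coding decile was also split in 2 by its exonic bases outside the coding sequence. Genes with more such bases had the higher median in every decile. A split in 2 is coarser than 10 deciles, so these differences and those between coding deciles are not on a like scale. Within the longest coding decile the median was 0.44 for genes with fewer such bases and 0.46 for genes with more. It was -0.445 and -0.299 within decile 4, and -0.80 and -0.63 within the shortest. In the longest decile 189 genes with fewer such bases and 250 with more were called higher, and in decile 9 these were 85 and 112. Deciles 5 (20 and 14) and 7 (37 and 34) went the other way. Binned by whole exonic length, the median rose from -0.85 to 0.14 at P12, and over exonic deciles of the genes tested at P60 it rose from -0.29 to -0.02. When a smooth trend in coding length was taken out, an alternative chosen after seeing the data, 571 genes were higher and 101 lower. Of the 926 genes called higher that have a coding length 511 kept their call, and of 273 called lower 37 did. Of 110 called genes named here that have a coding length, 44 lost their call, 12 of them with a turned sign, and they are given with their groups.

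**Figure D3:**
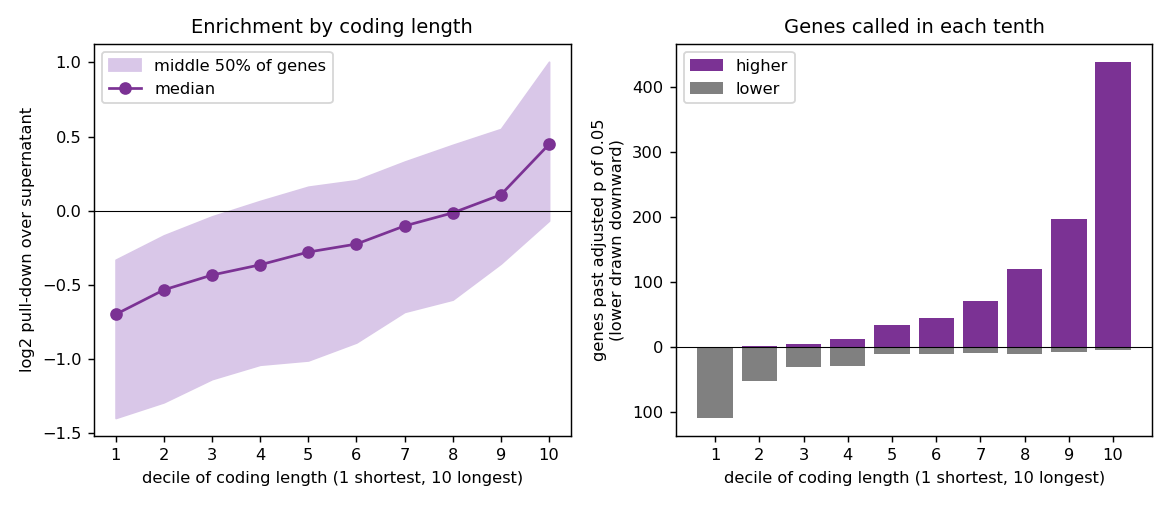
Left, the log2 difference of pull-down over supernatant at P12 by decile of coding length (line, median; band, 25th to 75th percentile); right, the number of genes called higher (purple, upward) and lower (grey, downward) in each decile, at an edgeR adjusted p under 0.05. The median rose from -0.70 to 0.45 and the genes called higher from 0 to 439 between the shortest and the longest decile.

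Against that gradient, Pomc was an exception. With 705 coding bases it was 1 of 2 genes called higher among the 2806 genes with up to 801 coding bases. The other was Myoz3, a muscle Z-disc gene, at 137, 10.6 and 27.2 CPM in the pull-downs and 4.12 to 5.19 CPM in the supernatants. With the coding length trend removed Pomc stood at 2.52 ± 0.50 (adjusted p = 0.00352) and Avpr1b at 5.05 ± 0.44 (adjusted p = 1.55e-07). At the other end, Naca, whose longest annotated coding sequence is a muscle form of 6.56 kb, was 1 of 5 genes of the longest decile called lower (-0.95 ± 0.18). These genes were picked out after their values were seen.

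Within single protein machines long subunits were often called higher and short ones were not. In the group of microtubule motors and associated proteins 15 of 27 rose and 4 fell (8 and 8 under library size scaling). Among all tested genes 6.28% rose and 1.95% fell. Dync1h1, the 13.9 kb heavy chain of cytoplasmic dynein, stood at 2850, 7133 and 2894 CPM in the pull-downs and 630, 732 and 675 CPM in the supernatants (2.86 ± 0.19). Pull-down 2 was far above the other pull-downs, and all 3 exceeded every supernatant. The dynein light chains Dynll1 and Dynll2, of 0.267 kb each, were lower by -0.76 ± 0.16 and -0.66 ± 0.13 (adjusted p = 0.00539 and 0.00261). Dynll1 stood at 119, 88.5 and 126 CPM against 220 to 255 CPM, with no overlap. Kif5a, a kinesin that moves cargo along axons, rose by 1.94 ± 0.13 and Mtap1b, a microtubule protein of growing axons, by 1.19 ± 0.10, while Map1lc3a, the short autophagy protein first found bound to it, fell (-0.59 ± 0.16). Map1lc3a lost its call without pair 2 or 3 (adjusted p = 0.0705 and 0.227) and turned sign with the exonic length correction (0.28), which also ended the calls of both light chains. The coding length correction ended the calls of Dynll1, Dynll2, Map1lc3a and Mtap1b (adjusted p = 0.99, 0.812, 0.835 and 0.175). Mtap4, another microtubule protein that fell (-0.52 ± 0.14, adjusted p = 0.024), has a coding sequence of 4.32 kb and so lies in the longest decile.

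The spliceosome split the same way. Of 26 splicing factors 7 rose and 0 fell (6 and 8 under library size scaling), beside 6.28% and 1.95% of all tested genes. The 7 were among the 8 with the longest coding sequences. Prpf8, the 7.005 kb core of the catalytic centre, stood at 1076, 1407 and 838 CPM in the pull-downs and 237, 241 and 206 CPM in the supernatants (2.60 ± 0.14). The helicase Snrnp200 rose by 2.56 ± 0.15, the branch-site factor Sf3b1 by 2.16 ± 0.21, and the scaffolds Srrm2 and Son by 1.75 ± 0.15 and 1.37 ± 0.13. The small ring protein Snrpe, of 0.276 kb, stood at 6.82, 13 and 9.34 CPM against 26.4 to 31.99 CPM and did not pass (-1.32 ± 0.50, adjusted p = 0.14), although it did over all 12 libraries (adjusted p = 0.0263) and under library size scaling (0.0329).

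Regulators of transcription gave many rises and no falls, where 6.28% of all tested genes rose and 1.95% fell. Of 30 chromatin remodeller subunits 15 rose, of 24 histone methyltransferases and demethylases 10, and of 37 coactivators, corepressors and Mediator subunits 14, with 0 lower in each (11, 8 and 9 higher and 2, 0 and 0 lower under library size scaling). Smarca4, the ATPase of BAF, rose from 327, 350 and 279 CPM to 753, 928 and 901 CPM (1.78 ± 0.14), with no overlap. Chd7, a remodeller of enhancers, rose by 1.70 ± 0.22, and Arid1a, the paralog of Arid1b, by 1.30 ± 0.14, far less than Arid1b. Kdm6b, which removes a repressive histone mark, rose by 1.97 ± 0.19, Ash1l by 1.47 ± 0.14 and Mll3 by 1.47 ± 0.14. Trrap, a scaffold of acetyltransferase complexes, rose by 1.38 ± 0.17. With the coding length correction Chd7 (0.76, adjusted p = 0.0677), Arid1a (0.55, adjusted p = 0.0563), Ash1l (0.55, adjusted p = 0.0709), Mll3 (adjusted p = 0.665) and Trrap (0.27, adjusted p = 0.508) were no longer called. Of the Mediator subunits the long kinase-module member Med12 (6.57 kb) rose by 1.51 ± 0.33. Its call was lost without pair 2 (1.38, adjusted p = 0.0989) and with the coding length correction (0.78, adjusted p = 0.262). The short Med31 (0.393 kb) stood at -1.32 ± 0.95 (adjusted p = 0.523). This pair does not stand for every Mediator subunit. Med13l also rose (0.58 ± 0.17, adjusted p = 0.0392). Med13 (-0.02 ± 0.18, adjusted p = 0.965), Med1 (-0.06 ± 0.28, adjusted p = 0.939) and Med14 (0.31 ± 0.25, adjusted p = 0.579) were not called.

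Translation and protein turnover followed, again beside 6.28% of all tested genes called higher and 1.95% called lower. Of 35 translation factors 7 rose and 1 fell (6 and 12 under library size scaling). Eif4g1, the scaffold that brings the ribosome to capped mRNA, stood at 1040, 1376 and 1195 CPM against 357, 391 and 320 CPM (2.10 ± 0.13), and Eif4g3 rose by 1.80 ± 0.13. The large eIF3 subunits Eif3c and Eif3a rose by 1.18 ± 0.14 and 1.12 ± 0.14. Eef1a1, the abundant elongation factor, stood at 1130, 1125 and 1197 CPM in the pull-downs and 2021, 1989 and 1959 CPM in the supernatants. Although the groups were far apart, the difference on the TMM scale was -0.44 ± 0.12 (adjusted p = 0.0231), and it did not pass without pair 1 or 3 (adjusted p = 0.0508 and 0.0896). Eef2, the translocase, was higher by 0.43 ± 0.12, a call also lost without pair 1 or 3 (adjusted p = 0.0539 and 0.152) and under library size scaling. Of 13 giant ubiquitin ligases 12 rose (11 under library size scaling), among them Ubr4 (2.37 ± 0.15), with Herc2 at 1.76 ± 0.17 and Huwe1 at 1.204 ± 0.13. The calls of Herc2 (0.49, adjusted p = 0.0971), Huwe1 (adjusted p = 0.993), Eef2 (adjusted p = 0.376) and Eef1a1 (adjusted p = 0.504) were lost with the coding length correction. Of 33 proteasome subunits, which are mostly short, only Psmd2, a large subunit of the base, rose (0.77 ± 0.14, lost under library size scaling, where 5 subunits were lower). Psmd1, with 838, 2936 and 2914 counts in the pull-downs, was not called (-0.02 ± 0.16, adjusted p = 0.962).

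Of 24 genes of the mTOR complexes, which couple nutrients to growth, 3 rose and 0 fell (1 and 2 under library size scaling). Among all tested genes 6.28% rose and 1.95% fell. The 3 that rose were Rictor (1.11 ± 0.18), Tsc2 (0.85 ± 0.21) and Mtor itself (0.75 ± 0.17). Tsc2 was not called without pair 1 or 2 (adjusted p = 0.0577 and 0.0526), nor Mtor without pair 2 (adjusted p = 0.0967). None of the 3 kept its call with the coding length correction (Rictor 0.54, Tsc2 0.24 and Mtor -0.07; adjusted p = 0.183, 0.693 and 0.896), and the sign of Mtor turned. The short Ragulator subunit Hbxip stood at 7.93, 2.28 and 5.20 CPM against 22.2 to 25.3 CPM, well apart, at -2.005 ± 0.65 (adjusted p = 0.0753). It passed in DESeq2 (adjusted p = 0.00857), over all 12 libraries (0.00989), under library size scaling (0.0212) and without pair 1 (0.0062).

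**Figure D4:**
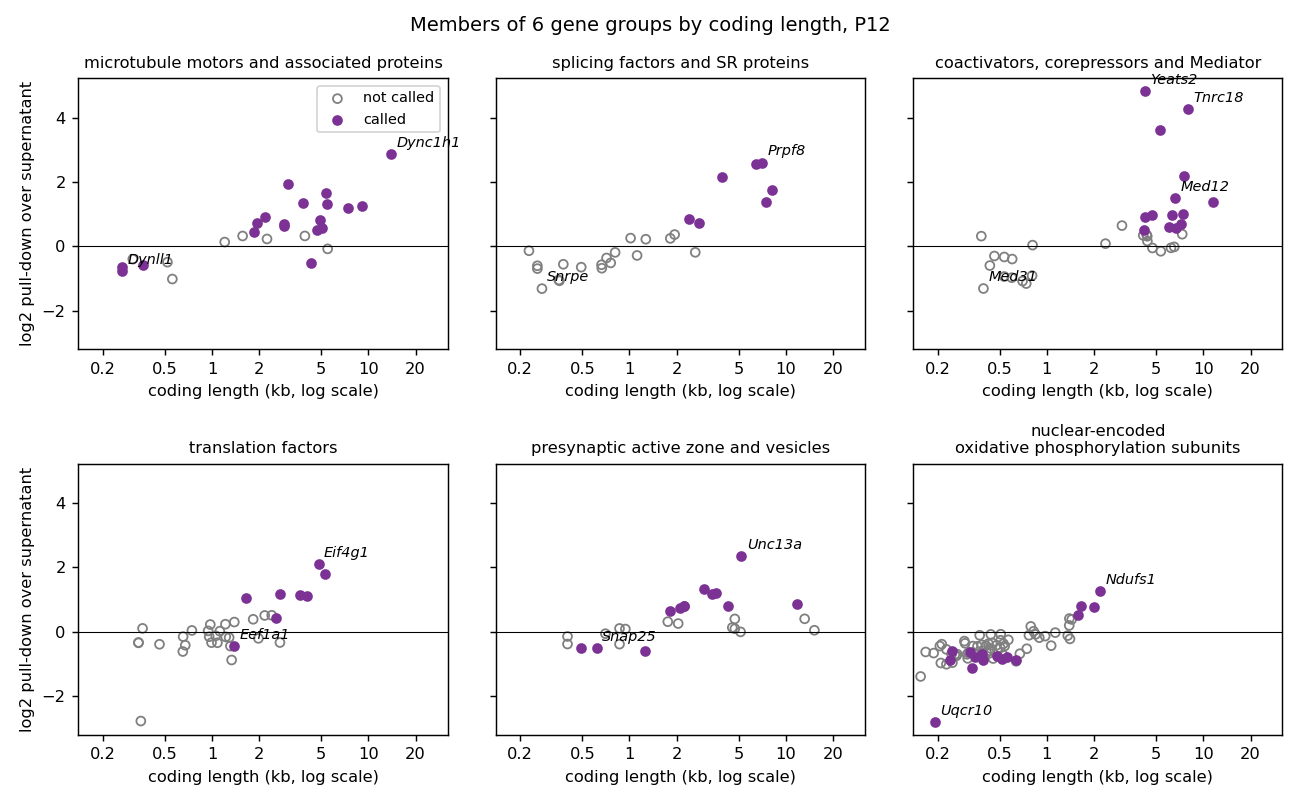
The log2 difference of pull-down over supernatant at P12 against coding length (kb, log axis) for members of 6 gene groups; filled points passed the edgeR test and open points did not. Long members lay mostly above 0 and short ones mostly below it, as with Dync1h1 at 2.86 and Dynll1 at -0.76.

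Energy metabolism moved in both directions, beside 6.28% of all tested genes called higher and 1.95% called lower. Of 73 nuclear-encoded oxidative phosphorylation subunits 4 rose and 12 fell (3 and 40 under library size scaling), with a median of -0.52. The 4 that rose had the longest coding sequences of the set: Ndufs1 of complex I (1.26 ± 0.16), Sdha of complex II (0.78 ± 0.14), and Atp5a1 and Atp5b of the ATP synthase (0.79 ± 0.14 and 0.53 ± 0.13, the last not called without pair 3, adjusted p = 0.0532, or under library size scaling). Uqcrb, a short complex III subunit, stood at 33.5, 51.6 and 57.9 CPM against 126 to 134 CPM and was lower by -1.14 ± 0.22. Cox7b of complex IV was lower by -0.87 ± 0.19. Uqcr10, of 0.192 kb, had 0, 9.11 and 15.9 CPM in the pull-downs against 45.9 to 55.7 CPM, so its fitted -2.82 ± 0.81 rests partly on a library without a read, and DESeq2 did not call it (adjusted p = 0.31). The exonic and coding length corrections each ended the calls of Uqcrb, Cox7b and Uqcr10. Of 17 glycolysis genes, 9 rose and 0 fell (4 and 1 under library size scaling), with a median of 0.55. Hk1, the hexokinase of neurons, stood at 670, 624 and 626 CPM against 345, 336 and 306 CPM (1.31 ± 0.13), Pfkp rose by 1.04 ± 0.14 and Ldha by 1.01 ± 0.22, the last mainly through pull-down 1 (490 CPM against 204 and 158 CPM in the others) and not called under library size scaling (adjusted p = 0.057).

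Synaptic genes went both ways, beside 6.28% of all tested genes called higher and 1.95% called lower. Of 27 presynaptic genes 10 rose and 3 fell (7 and 6 under library size scaling). Unc13a, which primes vesicles for fusion, stood at 660, 749 and 690 CPM in the pull-downs and 165 to 180 CPM in the supernatants (2.35 ± 0.14). The active zone scaffolds Erc2 and Bsn rose by 1.32 ± 0.14 and 0.85 ± 0.13, the latter just missing the threshold with the exonic length correction (adjusted p = 0.053). Bsn turned sign with the coding length correction (-0.28, adjusted p = 0.492). Coding length did not order the group throughout, since Pclo, another active zone giant of 15.2 kb, stood at 0.04 ± 0.14. The 3 that fell form or trigger the fusion machine: the SNARE proteins Snap25 (-0.50 ± 0.12) and Vamp2 (-0.50 ± 0.13) and the calcium sensor Syt1 (-0.62 ± 0.14). Snap25 and Vamp2 were not called without pair 3 (adjusted p = 0.0703 and 0.258). All 3 lost their calls when the pairing was removed, and Snap25 and Vamp2 also with the exonic length correction. The coding length correction ended all 3 as well (Snap25 0.06, Vamp2 0.15 and Syt1 -0.37; adjusted p = 0.902, 0.763 and 0.27).

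Postsynaptic genes and channels moved less, and over all tested genes 6.28% rose and 1.95% fell. Of 23 postsynaptic genes 5 rose, among them the scaffold Dlg3 (0.98 ± 0.15), and 1 fell, the glutamate receptor subunit Gria4 (-0.75 ± 0.21), with 1 and 4 under library size scaling. Gria4 was not called without pair 1 or 3 (adjusted p = 0.158 and 0.106). Of 26 voltage-gated and calcium release channels 5 rose and 0 fell (2 and 5 under library size scaling), the largest being the calcium store channels Itpr1 (1.38 ± 0.19) and Ryr2 (1.04 ± 0.16, not called with the exonic length correction). Of 23 giant adhesion and guidance receptors 9 rose and 0 fell (5 and 1), led by the endocytic receptor Lrp1 at 693, 1051 and 750 CPM against 307 to 314 CPM (1.74 ± 0.14). Reln, the secreted guidance protein, rose by 1.36 ± 0.24. Itpr1, Ryr2, Lrp1 and Reln were not called with the coding length correction (adjusted p = 0.245, 0.55, 0.0624 and 0.608), and Ryr2 turned sign (-0.25).

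P12 is an age of axon and synapse growth, and the genes of immature neurons went both ways. Of 18, 6 rose and 5 fell (3 and 9 under library size scaling), beside 6.28% and 1.95% of all tested genes. The tubulins Tubb2a, Tubb3 and Tuba1a rose by 1.06 ± 0.14, 0.86 ± 0.14 and 0.73 ± 0.15, the last lost under library size scaling (adjusted p = 0.104). Tubb2a stood at 850, 634 and 769 CPM against 441 to 476 CPM, with no overlap. The 5 that fell encode short, highly charged growth-cone or microtubule-binding proteins: Basp1 (-0.72 ± 0.12), Marcksl1 (-0.66 ± 0.13), Stmn1 (-0.63 ± 0.13), Marcks (-0.59 ± 0.15) and Gap43 (-0.52 ± 0.13). Gap43 stood at 415, 441 and 492 CPM in the pull-downs and 785 to 863 CPM in the supernatants. Marcks and Gap43 were not called without pair 1 (adjusted p = 0.112 and 0.051), and the exonic and coding length corrections each ended all 5 calls.

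For the remaining groups the shares over all tested genes were again 6.28% called higher and 1.95% called lower. Of 30 genes of microRNA silencing and mRNA decay 6 rose and 0 fell (2 and 2 under library size scaling), with a median of 0.14. Of 22 sterol synthesis and uptake genes only Hmgcs1, an early enzyme of the pathway, rose (0.80 ± 0.14; 1 higher and 1 lower under library size scaling), and of 20 endoplasmic reticulum chaperone and stress genes only Hspa5, the lumenal chaperone BiP, rose (0.71 ± 0.18). Hspa5 was not called without pair 3 (adjusted p = 0.0766) or under library size scaling, where 0 of the 20 were higher and 2 lower. Of 17 immediate early genes 0 were called by edgeR or DESeq2, and 1 was lower at an unadjusted p under 0.05 and 1 under library size scaling.

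A list by level rather than by change ranked genes by CPM per kb of exon in the P12 pull-downs. The untranslated RNAs Bc1 and Rpph1, which fell and are described below, ranked 1 and 4 in it. By counts alone Rn45s, a ribosomal RNA gene, was the highest in each P12 pull-down, at 1.84% to 5.07% of counts. In CPM per kb of exon, the highest messenger levels averaged 1041 for the chaperone Hsp90ab1, 937 for Spna2, 756 for the chaperone Hspa8, 676 for Nap1l5, 660 for Hap1, 648 for Pnmal2, 623 for the calmodulin gene Calm3, 609 for Peg3 and 601 for Gprasp1, leaving out Lars2, which holds a stretch that resembles ribosomal RNA. Against the supernatant these went different ways. Peg3, an imprinted zinc-finger gene, rose by 2.39 ± 0.11 and Gprasp1, which sorts receptors, by 2.42 ± 0.12, whereas the short Nap1l5 and Calm3 fell (-0.60 ± 0.12 and -0.55 ± 0.11), calls that the exonic and coding length corrections each ended. Peg3 stood at 7781, 9150 and 7400 CPM against 1714 to 2153 CPM. Nap1l5 was at 1171 to 1346 CPM in the pull-downs and 2198 to 2524 CPM in the supernatants, so a high level and a rise were separate things.

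RNAs that are not read by ribosomes gave some of the largest falls. Bc1, a short neuronal RNA made by RNA polymerase III that represses translation in dendrites, stood at 472, 308 and 134 CPM in the pull-downs and 4584, 4950 and 4885 CPM in the supernatants (-3.80 ± 0.25, adjusted p = 2.15e-08). Rmrp, the RNA of RNase MRP, stood at 51.2, 35.9 and 33.5 CPM against 373 to 474 CPM (-3.03 ± 0.17). Rpph1, the RNA of RNase P, was lower by -2.96 ± 0.21. These were the 3 that fell of 5 small structured RNAs tested, and 0 rose, on both scales. In each the fractions were about an order of magnitude apart without overlap. Bc1 (chr7:144914470-144914637, plus strand) and Rmrp (chr4:43492788-43493058, minus strand) are printed because they are the clearest untranslated falls, from GENCODE transcripts on GRCm38. Capitals mark the longest run of A in Bc1, 23 bases from base 77, and Rmrp has no run of A longer than 3 bases.
Bc1: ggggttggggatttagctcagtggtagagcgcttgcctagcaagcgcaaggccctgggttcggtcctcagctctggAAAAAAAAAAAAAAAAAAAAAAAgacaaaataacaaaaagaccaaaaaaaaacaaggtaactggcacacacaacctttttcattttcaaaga
Rmrp: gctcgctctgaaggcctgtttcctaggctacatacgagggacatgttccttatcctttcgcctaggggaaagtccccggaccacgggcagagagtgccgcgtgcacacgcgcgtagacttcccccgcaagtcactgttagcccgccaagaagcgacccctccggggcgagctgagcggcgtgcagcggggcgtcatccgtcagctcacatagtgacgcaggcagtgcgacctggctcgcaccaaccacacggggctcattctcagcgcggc

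Longer untranslated RNAs fell less. Of 15 long non-coding RNAs tested 0 rose and 3 fell (6 under library size scaling): the nuclear Malat1 (-1.53 ± 0.14), Meg3 (-1.202 ± 0.12) and Miat (-0.95 ± 0.16). Malat1 stood at 4434, 3526 and 2969 CPM against 11080 to 15450 CPM. Every pull-down lay below every supernatant, and each still held a large amount of this nuclear RNA. Of 601 genes that RefSeq classes as lncRNA 1 was called higher and 8 lower. Both shares lay below those over all tested genes (6.28% higher and 1.95% lower). The median of the 601 was -1.27, beside -0.27 over all tested genes. Of 42 tested clustered histone genes 0 rose and 5 fell (10 under library size scaling), among them Hist1h3f (-4.38 ± 1.14) and Hist1h4m (-2.93 ± 0.61). Hist1h3f was not called without pair 2 (adjusted p = 0.265), and the exonic length correction ended both calls, the coding length correction that of Hist1h3f (adjusted p = 0.0682). Histone messages mostly lack a poly(A) tail, and these gene copies are near-identical, so reads may be split between them. Of 12 small nucleolar RNA genes tested among 91 listed 0 were called by edgeR or DESeq2 and 1 was lower at an unadjusted p under 0.05, with a median of -2.20.

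Besides the histone gene Hist1h3f, the protein-coding genes Plau and Gas2 fell as far as the small structured RNAs. Plau, the secreted protease urokinase, stood at 1.11, 1.94 and 0.555 CPM in the pull-downs and 22.0, 34.4 and 20.9 CPM in the supernatants (-4.20 ± 0.73, adjusted p = 0.00106). Gas2, an actin-binding protein, stood at 0.159, 0.389 and 0.555 CPM against 8.79 to 13.3 CPM (-4.60 ± 1.25). Both were near the floor in every pull-down. Gas2 was not called without pair 2 or 3 (adjusted p = 0.158 and 0.108) or with the coding length correction (adjusted p = 0.0572), and Plau kept its call under each alternative run.

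Markers of other cells in the tissue were counted in the same way, beside 6.28% of all tested genes called higher and 1.95% lower. Of 14 astrocyte genes 3 rose and 0 fell (1 and 1 under library size scaling), and their summed level was 1848 to 2166 CPM in the pull-downs and 1805 to 1881 CPM in the supernatants, with 1 of them, Gjb6, without a read in a pull-down. Gfap, the astrocyte filament, stood at 404, 276 and 452 CPM against 164 to 173 CPM (1.48 ± 0.16). The enzymes Aldoc and Glul rose by 0.60 ± 0.14 and 0.55 ± 0.14, calls lost without pair 3 (adjusted p = 0.104) and pair 1 (adjusted p = 0.0791) respectively, and both under library size scaling. Of 15 myelin genes 0 rose and 2 fell (0 and 3 under library size scaling), among them Mobp (-0.67 ± 0.18), not called without pair 3 (adjusted p = 0.183) or with the coding length correction (adjusted p = 0.963). Their list summed to 989 to 1325 CPM in the pull-downs and 1229 to 1354 CPM in the supernatants, and 2, Mal and Opalin, lacked a read in a pull-down. Astrocyte and myelin RNA was thus present in the pull-downs at a level close to that of the supernatants.

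Markers of rarer cells are set beside the 6.28% of all tested genes called higher and the 1.95% called lower. Of 8 oligodendrocyte precursor genes 1 rose and 0 fell (1 and 2 under library size scaling): Cspg4, a proteoglycan with a 6.98 kb coding sequence (2.24 ± 0.36). The list summed to 354 to 412 CPM in the pull-downs and 462 to 503 CPM in the supernatants. Of 10 tanycyte and ependymal genes 1 rose, the filament gene Vim, at 127, 90.6 and 107 CPM against 42.1 to 47.7 CPM (1.58 ± 0.22), and Rarres2 and Tmem212 had no read in any pull-down. The list summed to 145 to 179 CPM in the pull-downs and 92.2 to 98.8 CPM in the supernatants, and Vim made up most of the pull-down sum. The median over its tested members was -0.25, beside -0.27 over all tested genes. Of 15 vascular and leptomeningeal genes 1 rose, the collagen Col1a1 (1.71 ± 0.49), and it was not called without pair 2 or 3 (adjusted p = 0.342 and 0.0562), with the coding length correction (adjusted p = 0.202) or under library size scaling, and 8 of the 16 listed lacked a read in a pull-down. None of 12 microglial genes passed in edgeR, at an unadjusted p under 0.05, in DESeq2 or under library size scaling, with 33.0 to 45.0 CPM summed in the pull-downs and 40.9 to 43.7 CPM in the supernatants, and Trem2 had no read in any pull-down. Of 18 proliferation genes the long Mki67 (9.53 kb) and Cenpe (7.41 kb) rose, by 2.35 ± 0.47 and 2.56 ± 0.64, the latter not called without pair 3 (1.85, adjusted p = 0.433) and neither with the coding length correction (adjusted p = 0.114 and 0.151), and the list summed to 172 to 203 CPM against 105 to 118 CPM. Of 5 blood genes 2 had enough counts to be tested and neither was called in edgeR, at an unadjusted p under 0.05 or in DESeq2. The part of other cells in the enrichments described above was not tested.

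The last question was how the P12 enrichment differed from that at P60, tested over all 12 libraries as the P60 log2 difference less the P12 log2 difference. Time since tamoxifen also differed between the ages, and its part in these differences was not tested. Of 15311 genes, 67 (0.438%) had a larger value at P60 and 105 (0.686%) a larger value at P12. The count at P60 was 106 without P12 pair 1, 119 without pair 2 and 151 without pair 3. The count at P12 was 135 without P12 pair 1, 106 without pair 2 and 69 without pair 3.

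Of 11 POMC neuron transcription factors 4 were larger at P60, of 17 peptide processing genes 3 and of 29 metabolic receptor genes 2, with 0 larger at P12 in each. Cartpt stood at 1047, 881 and 1002 CPM in the P60 pull-downs and 38.0 to 59.5 CPM in the P60 supernatants, against overlapping fractions at P12, a difference of 4.75 ± 0.32 (adjusted p = 6.06e-09). Prdm12 stood at 116, 70.6 and 59.8 CPM in the P60 pull-downs and 4.33 to 5.88 CPM in the supernatants, so its direction at P60 was opposite to that of its P12 levels (6.40 ± 0.67). Pomc differed by 4.80 ± 0.41, GFP by 2.08 ± 0.29, Tbx3 by 2.36 ± 0.40 and the peptide gene Gal by 3.69 ± 0.43. The elongation factors Eef1a1, Eef1b2 and Eef1g, whose messages begin with a terminal oligopyrimidine tract, differed by 0.86 ± 0.19, 0.92 ± 0.21 and 0.96 ± 0.19, and all 3 lost the call with the exonic length correction.

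Several of the largest P12 rises were smaller at P60. Arid1b stood at 1046, 942 and 1026 CPM in the P60 pull-downs and 119 to 132 CPM in the supernatants, well separated but far below its P12 pull-down levels (difference -2.28 ± 0.21, adjusted p = 9.37e-07). Avpr1b stood at 3.70, 1.54 and 6.95 CPM in the P60 pull-downs and 1.52 to 2.17 CPM in the supernatants, which overlap (-3.64 ± 0.66, adjusted p = 0.00424). Tnrc18, Bahcc1 and Bcor differed by -2.28 ± 0.25, -2.33 ± 0.33 and -2.06 ± 0.32. Of the 14 spectrins, ankyrins and giant linkers 8 were larger at P12, among them Plec (-1.38 ± 0.23), Ank2 (-1.39 ± 0.22), Spnb2 (-1.32 ± 0.23) and Macf1 (-1.43 ± 0.24). Gfap, higher in the pull-down at P12, stood at 194, 156 and 127 CPM in the P60 pull-downs and 167 to 199 CPM in the supernatants (-1.51 ± 0.21, adjusted p = 0.000347). Mkrn3, an imprinted gene known as a brake on puberty, stood at 21.7, 46.9 and 36.3 CPM in the P12 pull-downs and 20.9 to 29.0 CPM in the supernatants. At P60 it had no count in pull-downs 1 and 2 and 0.929 to 1.16 CPM in the supernatants, so the fitted size of its difference is no measure of fold.

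**Figure D5:**
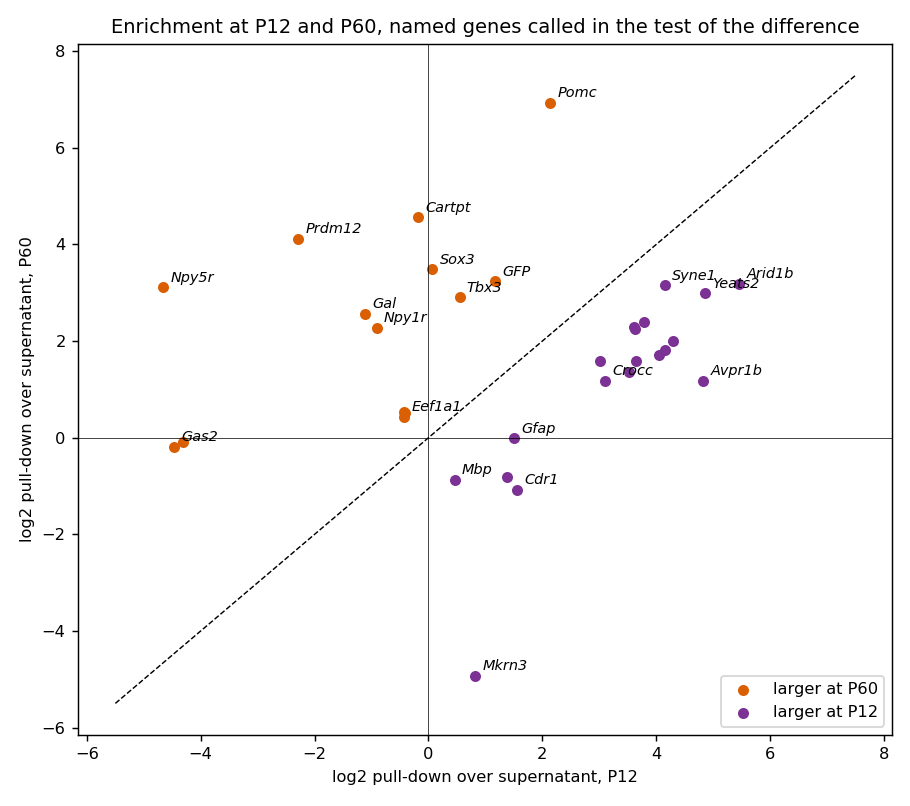
The log2 difference of pull-down over supernatant at P12 (horizontal axis) and at P60 (vertical axis), both from the fit over all 12 libraries, for the genes called in the test of their difference that are named in the text; the dashed line marks equal values. Orange points, larger at P60, include Pomc and Cartpt, and purple points, larger at P12, include Arid1b and Avpr1b.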

How the data were processed

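RNA from the beads and from the supernatant of 3 P12 and 3 P60 preparations was sequenced. The deposited values are raw counts per gene, which the authors made by aligning reads to the mouse build mm10 (TopHat2 2.0.13, running Bowtie2 2.2.1) and counting with HTSeq. No source used here gives the strand setting or gene annotation. The labels name polyA RNA as the molecule although ribosomal RNA was depleted, and whether mice were pooled is not stated, so p-values measure only the spread between these samples. The sum of counts over genes was taken as depth, and its ranges and the precision they give open the report.

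CPM is a count per 1000000 counts of the library total. Genes passing filterByExpr were tested in edgeR 4.0.16 (R 4.3.3) with TMM scaling, the quasi-likelihood test, the library number as a block and Benjamini-Hochberg adjustment at 0.05. The block follows the paired model that the study describes. Departures from the group mean correlated between libraries of 1 number at 0.04, 0.02 and 0.03, each under 0.1. No 2 libraries of a group agreed within sampling noise. The age difference was fitted over all 12 libraries. Exonic and coding lengths came from GENCODE M21, which gave an exonic length for 98.3% of genes, and the length corrections removed a smooth trend of each library's counts in length. The fits were also run on simulated counts that gave both fractions the same spread per gene and no pair effect. That run does not speak to the wider spread of the real pull-downs.

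The named genes were the largest changes among genes called in the same direction in all pairs and averaging at least 10 CPM in the higher fraction, members of 40 gene lists, and the largest age differences. Members and lists were chosen with earlier results of these data known. Alternatives were DESeq2 1.42.0, its size factors, library size alone, no or a stricter filter, no block, all 12 libraries, length corrections and each pair left out. Some genes counted in the lists are not reported here by name.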

Additional observations from a re-analysis of the deposited data

Results flagged for a closer look

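For 33 named genes the enrichment differed between the ages in the edgeR test of the difference itself, given here as the P60 log2 difference less the P12 log2 difference. Larger at P60 were Npy5r (7.77), Prdm12 (6.40), Pomc (4.80), Cartpt (4.75), Gal (3.69), Sox3 (3.42), Npy1r (3.19) and Tbx3 (2.36), and the tag GFP (2.08). Npy5r had 0, 3 and 0 counts in the P12 pull-downs, so its size is not a measure of fold. Gas2 (4.28) and Hist1h3f (4.23), which were near the floor of the P12 pull-downs, and the elongation factor genes Eef1g (0.96), Eef1b2 (0.92) and Eef1a1 (0.86) were also larger at P60.

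Larger at P12 were Mkrn3 (-5.74), Avpr1b (-3.64), Cdr1 (-2.63), Mlph (-2.34), Bahcc1 (-2.33), Arid1b (-2.28), Tnrc18 (-2.28), Trf (-2.19), Tprn (-2.15), Bcor (-2.06), Crocc (-1.93) and Yeats2 (-1.85). The spectrin and linker genes Macf1 (-1.43), Ank2 (-1.39), Plec (-1.38), Spnb2 (-1.32) and Syne1 (-1.0) and the glial genes Gfap (-1.51) and Mbp (-1.33) were larger at P12 too. Cdr1 stood at 516, 751 and 626 CPM in the P12 pull-downs and 245 to 306 CPM in the supernatants, and at 485, 172 and 210 CPM against 582 to 682 CPM at P60, so its direction turned. Mlph was not called without P12 pair 1 or 3 (-2.10 and -2.27), Hist1h3f without pair 2 (3.67), Syne1 without pair 3 (-0.69) and Eef1b2 without pair 1 (0.77). Syne1 also lost its call with the exonic length correction (-0.61), library size alone (-0.84), no block (-1.035) and the stricter filter (-1.02). Other losses were Mlph with library size alone (-2.18) and Hist1h3f with the exonic length correction (3.54) and the stricter filter (4.21). Eef1b2 lost its call without the block (0.88) and with the stricter filter (0.90).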

How the results depend on the processing

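The count of genes higher in the P12 pull-down, 933, was 534 with library size alone and 571 with the coding length correction, which was chosen after seeing the data, and 796 to 938 with a pair left out. The count lower, 289, moved more: 594 with DESeq2, 657 over all 12 libraries, 1390 with library size alone, 178 with the stricter filter, 169 and 101 with the exonic and coding length corrections, and 241 to 249 with a pair left out. Without the replicate block the counts were 944 and 472, and 9 of 118 named calls were lost. Genes higher in the longest exonic decile numbered 322, 208 with library size alone and 266 to 324 with a pair left out. Lists with more members higher than lower numbered 29 of 40, 11 with library size alone and 25 to 29 with a pair left out. For the age difference, genes larger at P60 numbered 67, then 235 with DESeq2, 161 with no filter, 44 with the stricter filter, 115 with library size alone, 33 with the exonic length correction and 106 to 151 with a P12 pair left out. Genes larger at P12 numbered 105, then 231, 202, 67 and 65 in the order DESeq2, no filter, stricter filter and library size alone, and 69 to 135 with a pair left out. The cause of these shifts was not tested.

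The exonic length correction turned the sign of Cartpt (0.61), Map1lc3a (0.28), Gap43 (0.23), Marcksl1 (0.065), Nap1l5 (0.047), Eef1b2 (0.046), Eef1a1 (0.038) and Eef1g (0.008), none called after it, and the coding length correction that of Cartpt (0.479), Dynll1 (0.008), Dynll2 (0.111), Map1lc3a (0.123), Bsn (-0.277), Snap25 (0.062), Vamp2 (0.15), Ryr2 (-0.248), Gap43 (0.009), Stmn1 (0.043), Mtor (-0.074), Calm3 (0.122), Nap1l5 (0.064) and Eef1b2 (0.104), again none called. Cartpt ranged from -0.71 to 0.14 with a pair left out. Of 118 named genes called at P12, 23 lost the call without at least 1 pair. Of genes expected to have 20 to 50 reads, 17.8% to 38.3% had none in a P12 pull-down. Coding length came from GENCODE, since the protein table planned for it was not used here.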
